A study of Homo sapiens with 8 samples.

Results

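Emetine changed the inclusion of many cassette exons, and the question here is where its effect on an exon was not the same in MCF10A and HMLE TWIST cells. For each skipped-exon event, the change of the inclusion level in HMLE TWIST (emetine minus control) was set against the change in MCF10A, and the difference of these changes was tested as the interaction of line and treatment over all 8 libraries. A negative difference means that emetine moved the exon further towards skipping, or less far towards inclusion, in HMLE TWIST than in MCF10A. The events were those listed in both deposited tables with at least 50 junction reads in each library, 40230 of 56675 joined events and of 123924 events listed in either table. They lay in 7826 genes and on 32940 exons, and events of an exon or of a gene often share reads.

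The MCF10A line is breast epithelial and not tumorigenic, and HMLE TWIST is an immortalised line of breast epithelial cells that overexpresses TWIST from an integrated pBabe retroviral construct. Each line was kept for 24 hours in DMSO, the solvent control, or in 10 µM emetine, with 2 libraries in each of the 4 groups. The study describes them as biological replicates. All differences between the lines are differences between 1 MCF10A and 1 HMLE TWIST line, so an effect of TWIST and any other difference of origin cannot be told apart. The study as a whole asks how small molecules act on splicing by way of G-quadruplexes, folded RNA structures of guanine runs.

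A cassette exon can be spliced into the mature mRNA or skipped, and its inclusion level is the share of transcripts that carry it, from 0 to 1. Many such exons are switched when epithelial cells take on mesenchymal character, a transition that TWIST can drive. ESRP proteins, which bind RNA in epithelial cells, are known regulators of this switch. Other cassette exons carry a premature stop codon, so that their inclusion or skipping marks the mRNA for nonsense-mediated decay, a pathway that requires translation. Emetine is an alkaloid that blocks translation elongation.

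The libraries held between 52590928 and 60752532 junction reads over these events, with a median of 398 to 582 reads per event. The label of each line was checked against junction reads of marker genes. Of 13 epithelial markers, 9 had reads and all 9 were higher in every MCF10A library than in any HMLE TWIST library, with sums of 37640 to 67538 against 52 to 109 reads. CDH1, ESRP1 and ESRP2 had at most 9 reads in any HMLE TWIST library. Of 12 mesenchymal markers, 11 had reads and all 11 were higher in HMLE TWIST, with sums of 172777 to 335374 against 6517 to 30172. Marker reads also moved with the treatment, for example CDH1 in MCF10A with 1362 and 1563 reads under DMSO and 358 and 415 reads with emetine. The part of these gene levels in the splicing results was not tested. The median SD between the replicates of a group ran from 0.0170 to 0.0202 in inclusion level over the events called below.

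The response of 5 short coding exons is followed through the results, because the lines differ there in the start level, the direction or the size of the response. Each sequence runs 5′ to 3′ on the strand of the gene, with the exon in capitals and 12 bases of the neighbouring exons in lower case. They were read from GENCODE 29 transcripts in which the gene, the exon length and both intron lengths match the event, while coordinates are those of the deposited tables (GRCh37).
NAV2, chr11:20104138-20104146, plus strand: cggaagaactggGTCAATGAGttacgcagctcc
PLEKHA1, chr10:124187792-124187832, plus strand: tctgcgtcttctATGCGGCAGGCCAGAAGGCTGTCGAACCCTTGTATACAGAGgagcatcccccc
SPAG9, chr17:49053224-49053262, minus strand: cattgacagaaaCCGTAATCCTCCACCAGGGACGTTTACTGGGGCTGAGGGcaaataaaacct
RAPGEF2, chr4:160265188-160265211, plus strand: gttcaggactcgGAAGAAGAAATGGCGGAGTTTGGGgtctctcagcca
DNM2, chr19:10919245-10919256, plus strand: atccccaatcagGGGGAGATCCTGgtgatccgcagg

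The exons are 9, 41, 39, 24 and 12 nucleotides long, in this order, so that all but that of PLEKHA1 can be skipped without a shift of the reading frame. The SPAG9 exon holds 61.5% G and C and the DNM2 exon 66.7%, against 44.4% in NAV2.

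Of the 40230 events, 27754 in 7197 genes could be tested. In the other 12476 the rarer form had fewer than 10 reads over all libraries, and 3 of them had a difference of the changes of 0.1 or more. The response differed between the lines in 485 events on 473 exons of 394 genes, taking as called an adjusted p-value below 0.05 with a difference of 0.1 or more in either direction, which is 1.75% of the events tested. Over all 31825 events of the fit, including shallower ones, the share was 1.66%. The difference was negative in 325 events (1.17%) and positive in 160 (0.576%), so that 67.01% of the called events were more negative in HMLE TWIST (Wilson 95% interval 62.71 to 71.05, counting error only). The median difference was -0.196 in the negative and 0.18 in the positive events, and 55 and 22 of them reached 0.3. For comparison, the median absolute difference over all tested events was 0.0131.

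Most of these exons responded in 1 line and not detectably in the other. Emetine changed 2327 of the tested events in MCF10A (8.38%) and 3062 in HMLE TWIST (11.0%), by the same thresholds within a line. Of the 325 events with a negative difference, 143 changed in HMLE TWIST only, 85 in MCF10A only, 57 in both and 40 in neither by itself. Inclusion fell in HMLE TWIST in 183 of them and rose in MCF10A in 114. Of the 160 events with a positive difference, 81 changed in HMLE TWIST only, 36 in MCF10A only, 28 in both and 15 in neither, with a rise in HMLE TWIST in 105 and a fall in MCF10A in 46. The plot of the changes in both lines shows the called events on either side of the line of equal response.

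The calls rest on few libraries. Leaving out either of the MCF10A emetine libraries left 92 and 90 events, and leaving out either of the HMLE TWIST emetine libraries left 137 and 103. Without either of the HMLE TWIST controls 297 and 298 were called, and without either of the MCF10A controls 377 and 267. limma on the log2 odds of inclusion called 0 events, the lowest adjusted p-value being 0.197, while 3518 events had an unadjusted p-value below 0.05. Among the 98 called events named here, the direction of the difference held without any 1 library in 98, 30 were called in all of the 8 fits that leave out a library, and 9 in none. These 30 include the events of NAV2 (9 nucleotides), BCL9L, SPAG9, BPTF, STX16, PI4KB (202 nucleotides), LETMD1, SMAD4, CENPV, MDC1, NEMP1, RPS9, ZNF207 and DNM2 described below. With the event's own dispersion where larger 69 of the 98 were called. Of those described, the events of ABI1 (174 nucleotides), BIRC5, CLK2, CLSTN1, CSNK1G3, DDX46, DHX34, HNRNPC, LIMK2, OXR1, PPFIBP1, RAPGEF2, TBC1D13, TIA1, USP21, YAP1 and ZNF446 lost the call by that measure. Those of ABI1 (174 nucleotides), CSNK1G3, DHX34 and WASH6P are among the 9 called in no fit without a library.

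**Figure D1:**
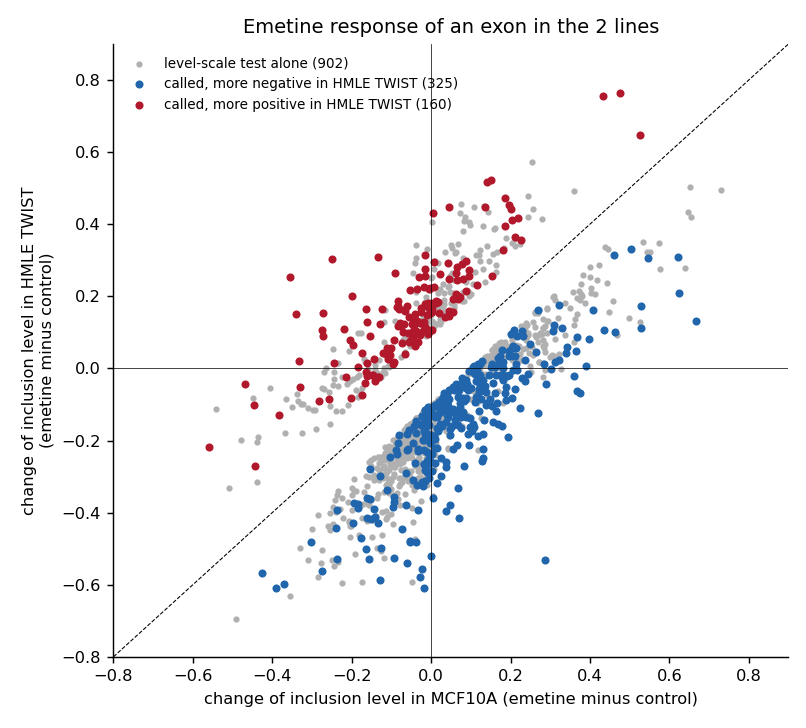
Change of the inclusion level under emetine in MCF10A (x axis) and in HMLE TWIST (y axis), 1 point per event: blue and red points are the 325 and 160 events called with a negative or a positive difference, grey points the 902 events called only when the difference was tested on the level scale, and the dashed line marks equal changes. The blue point alone at the lower right is the 9-nucleotide exon of NAV2, with a rise in MCF10A and a fall in HMLE TWIST.

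In 18 events of 16 genes emetine moved the exon in opposite directions, each change being called within its line. The largest difference of all was in the 9-nucleotide exon of NAV2 (ENSG00000166833.19), a neuron navigator protein that associates with microtubules. Its level was 0.177 and 0.226 in MCF10A under DMSO and 0.450 and 0.530 with emetine. In HMLE TWIST it was 0.659 and 0.783 under DMSO and 0.186 and 0.195 with emetine, so the lines exchanged places. The difference of the changes was -0.819 (95% interval -0.953 to -0.685; adjusted p-value 3.94e-09, fewest reads in a library 54). A coding exon of 99 nucleotides in the same gene (chr11:20078076-20078174) moved in the same sense at lower levels, from a mean of 0.112 to 0.276 in MCF10A; in HMLE TWIST it went from 0.216 to 0.0969 (difference -0.284).

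BCL9L, a coactivator of beta-catenin in Wnt signalling, gave the largest positive difference. Its 102-nucleotide exon (ENSG00000186174.12; chr11:118780623-118780724, minus strand) had levels of 0.714 and 0.612 in MCF10A under DMSO against 0.327 and 0.290 with emetine. In HMLE TWIST it went the other way, from 0.406 and 0.431 to 0.736 and 0.609. The difference was 0.608 (0.50 to 0.716; adjusted p-value 8.67e-09). A 54-nucleotide exon of the gene (chr11:118789535-118789588) fell and rose likewise, with a difference of 0.555. Both events have the same skipping junction and so share skipping reads. Neither matched a GENCODE 29 transcript in the exon length together with both intron lengths. Whether the exons are annotated with other neighbours was not looked up.

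APAF1 encodes the scaffold of the apoptosome, which activates caspases. Its 129-nucleotide coding exon (ENSG00000120868.13; chr12:99097149-99097277) fell in MCF10A from 0.424 and 0.403 to 0.267 and 0.164, and rose in HMLE TWIST from 0.259 and 0.285 to 0.423 and 0.525. No emetine library overlapped its controls, and the difference was 0.40 (0.264 to 0.537; adjusted p-value 5.57e-04). The 48-nucleotide exon of MAP2K7, a kinase that activates JNK (ENSG00000076984.17; chr19:7970693-7970740), fell in MCF10A from 0.349 and 0.352 to 0.134 and 0.131. In HMLE TWIST it rose from 0.546 and 0.611 to 0.718 and 0.660, so the gap that the untreated lines already showed became wider (difference 0.329, adjusted p-value 1.16e-04).

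The opposite combination, a rise in MCF10A and a fall in HMLE TWIST, was seen in 12 of the 18 events. CDK5RAP2, a centrosome protein, is an example: its 237-nucleotide exon (ENSG00000136861.17; chr9:123169290-123169526, minus strand) went from 0.742 and 0.695 to 0.862 and 0.834 in MCF10A; in HMLE TWIST it went from 0.864 and 0.936 to 0.695 and 0.659 (difference -0.353, adjusted p-value 1.07e-05). In MPRIP, which binds myosin phosphatase, a 63-nucleotide exon rose from a mean of 0.183 to 0.337 in MCF10A, whereas in HMLE TWIST it fell from 0.570 to 0.465, with at least 932 reads in every library (difference -0.260, adjusted p-value 8.18e-08). The kinase gene MARK2, the lipid carrier gene OSBPL6, the deubiquitinase gene USP21 and the Rab GTPase regulator TBC1D13 followed the same course, with differences from -0.335 to -0.240. The other events of this kind lay in C20orf24, CNEP1R1, LETMD1 and OXR1, and AKAP13 and GPD1L joined APAF1, BCL9L and MAP2K7 in the reverse direction.

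A larger group moved in HMLE TWIST while MCF10A gave no called change. The 41-nucleotide exon of PLEKHA1 (ENSG00000107679.14), which encodes a phosphoinositide-binding adaptor, had levels of 0.0642 and 0.0746 in MCF10A under DMSO and 0.0690 and 0.0344 with emetine. In HMLE TWIST it fell from 0.850 and 0.847 to 0.170 and 0.310 (difference -0.590, -0.697 to -0.484; adjusted p-value 1.13e-04, fewest reads 62). The exon was thus near absent in MCF10A throughout and was lost from most transcripts of HMLE TWIST under emetine. SPAG9, a scaffold for JNK signalling and for motor proteins (ENSG00000008294.20), behaved likewise at greater depth. Its 39-nucleotide exon was at 0.0425 to 0.0854 in the 4 MCF10A libraries and fell in HMLE TWIST from 0.729 and 0.766 to 0.173 and 0.206 (difference -0.535, -0.589 to -0.482; adjusted p-value 7.46e-07, at least 425 reads).

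In other genes the exon was used in both untreated lines and fell in HMLE TWIST. In BPTF, a chromatin-remodelling factor, the 189-nucleotide exon (ENSG00000171634.16; chr17:65871672-65871860) was at 0.539 and 0.469 in MCF10A under DMSO and 0.536 and 0.474 with emetine. It fell in HMLE TWIST from 0.989 and 0.974 to 0.425 and 0.497, against 0.469 to 0.539 in the MCF10A libraries (difference -0.521, adjusted p-value 5.31e-06). CLK2 encodes a kinase that phosphorylates SR splicing factors. Its 88-nucleotide coding exon (ENSG00000176444.18; chr1:155238499-155238586, minus strand) was between 0.872 and 0.991 in all libraries other than the HMLE TWIST emetine libraries, where it was 0.468 and 0.405 (difference -0.478, adjusted p-value 0.00179, and 0.0589 with the event's own dispersion where larger). The form that skips this exon matched noncoding transcripts only.

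Fusion and lipid signalling at the Golgi were represented by STX16 and PI4KB. STX16 is a SNARE of the trans-Golgi network, and its 152-nucleotide exon (ENSG00000124222.21; chr20:57244358-57244509) fell in both lines, from 0.724 and 0.659 to 0.574 and 0.553 in MCF10A; in HMLE TWIST it went from 0.820 and 0.808 to 0.252 and 0.20 (difference -0.460, adjusted p-value 1.11e-06). PI4KB, a phosphatidylinositol 4-kinase, had a partly coding exon of 202 nucleotides (ENSG00000143393.16; chr1:151298648-151298849, minus strand) at 0.571 to 0.657 in the 4 MCF10A libraries. In HMLE TWIST it fell from 0.70 and 0.741 to 0.225 and 0.253 (difference -0.444, adjusted p-value 3.57e-10, at least 726 reads). LETMD1 encodes a mitochondrial membrane protein, and its 116-nucleotide coding exon (ENSG00000050426.15; chr12:51445875-51445990) went from 0.394 and 0.434 to 0.478 and 0.493 in MCF10A, whereas in HMLE TWIST it fell from 0.709 and 0.640 to 0.269 and 0.249 (difference -0.487, adjusted p-value 8.96e-09). LA16c-431H6.6 on chromosome 16 is a clone-named locus that could share reads with an overlapping gene, and its difference of -0.551 is uncertain for that reason.

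Rises in HMLE TWIST that MCF10A did not show or showed to a lesser extent were seen in CENPV, MDC1 and NEMP1. CENPV, a centromere protein, has a 194-nucleotide exon (ENSG00000166582.9; chr17:16252454-16252647, minus strand) whose inclusion form is annotated only as a decay target. It was at 0.159 to 0.208 in the 4 MCF10A libraries and rose in HMLE TWIST from 0.0973 and 0.0749 to 0.531 and 0.502 (difference 0.426, adjusted p-value 8.85e-08). In MDC1, a mediator of the DNA damage checkpoint, the 792-nucleotide coding exon (ENSG00000137337.14; chr6:30675343-30676134, minus strand) was between 0.412 and 0.539 in MCF10A and rose in HMLE TWIST from 0.406 and 0.389 to 0.826 and 0.864 (difference 0.402, adjusted p-value 4.12e-08). NEMP1 encodes a nuclear envelope protein, and a 73-nucleotide decay-target exon (chr12:57463017-57463089, minus strand) rose in both lines, from a mean of 0.522 to 0.663 in MCF10A; in HMLE TWIST it went from 0.415 to 0.931 (difference 0.376, adjusted p-value 9.44e-06). Whether splicing or decay moved the level of such a form was not tested.

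The reverse case, a strong response in MCF10A and a weak or undetected response in HMLE TWIST, included several exons that were rare in both untreated lines. The 157-nucleotide exon of MSANTD3 (ENSG00000066697.14; chr9:103191788-103191944), outside the coding part, rose in MCF10A from 0.0693 and 0.0794 to 0.757 and 0.727. In HMLE TWIST it rose from 0.114 and 0.102 to 0.316 and 0.162 (difference -0.537, adjusted p-value 3.44e-04, fewest reads 54). SMAD4, the common partner of the receptor SMADs in TGF-beta signalling, has a 113-nucleotide decay-target exon (ENSG00000141646.13; chr18:48603677-48603789) that rose from 0.0677 and 0.0509 to 0.598 and 0.577 in MCF10A; in HMLE TWIST it went from 0.135 and 0.132 to 0.330 and 0.285 (difference -0.355, adjusted p-value 3.07e-07). In DDX46, a helicase of the spliceosome, a 117-nucleotide decay-target exon (ENSG00000145833.15; chr5:134125796-134125912) rose from 0.0258 and 0.0119 to 0.418 and 0.413, against 0.0411 and 0.0529 to 0.174 and 0.0835 in HMLE TWIST (difference -0.315, adjusted p-value 3.14e-04, and 0.0897 with the event's own dispersion where larger). All 3 exons were more than 0.1 apart between the lines under emetine and less than 0.1 apart in the controls.

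KLHL20, a substrate adaptor of a cullin ubiquitin ligase, and MFF, a receptor for the mitochondrial fission machinery, gave no called change in HMLE TWIST. In KLHL20 an exon of 132 nucleotides (chr1:173684662-173684793) rose in MCF10A from 0.374 and 0.241 to 0.684 and 0.667, with 0.406 and 0.446 against 0.390 and 0.338 in HMLE TWIST (difference -0.430, adjusted p-value 0.00112). The 75-nucleotide exon of MFF (chr2:228207461-228207535) rose from a mean of 0.389 to 0.753 in MCF10A with means of 0.323 and 0.371 in HMLE TWIST (difference -0.316, adjusted p-value 1.88e-04). A second called event of this exon, with different neighbours, had a smaller difference of -0.1396 (adjusted p-value 4.96e-05). Falls in MCF10A without a called change in HMLE TWIST were seen in the zinc finger gene ZNF446 (0.654 to 0.184 against 0.612 to 0.569; difference 0.426, adjusted p-value 0.00498, and 0.117 with the event's own dispersion where larger) and the lipase gene PNPLA8 (0.861 to 0.588 against 0.476 to 0.583; difference 0.381, adjusted p-value 0.00271). Another was in VEZT, a cell junction protein (0.859 to 0.585 against 0.775 to 0.929; difference 0.427, adjusted p-value 0.00410).

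RAPGEF2, an exchange factor for the GTPase RAP1, shows the effect of replicate spread. Its 24-nucleotide exon (ENSG00000109756.8) was at 0.687 and 0.490 in the MCF10A controls and fell to 0.350 and 0.147 under emetine, and it was at 0.441 and 0.539 in the HMLE TWIST controls and at 0.674 and 0.608 under emetine. The MCF10A replicates lay far apart, though the emetine libraries stayed below the controls. The difference of 0.491 had an interval of 0.280 to 0.702 and an adjusted p-value of 0.00938, which became 0.163 with the event's own dispersion where larger, and the call held in 2 of the 8 fits without a library.

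**Figure D2:**
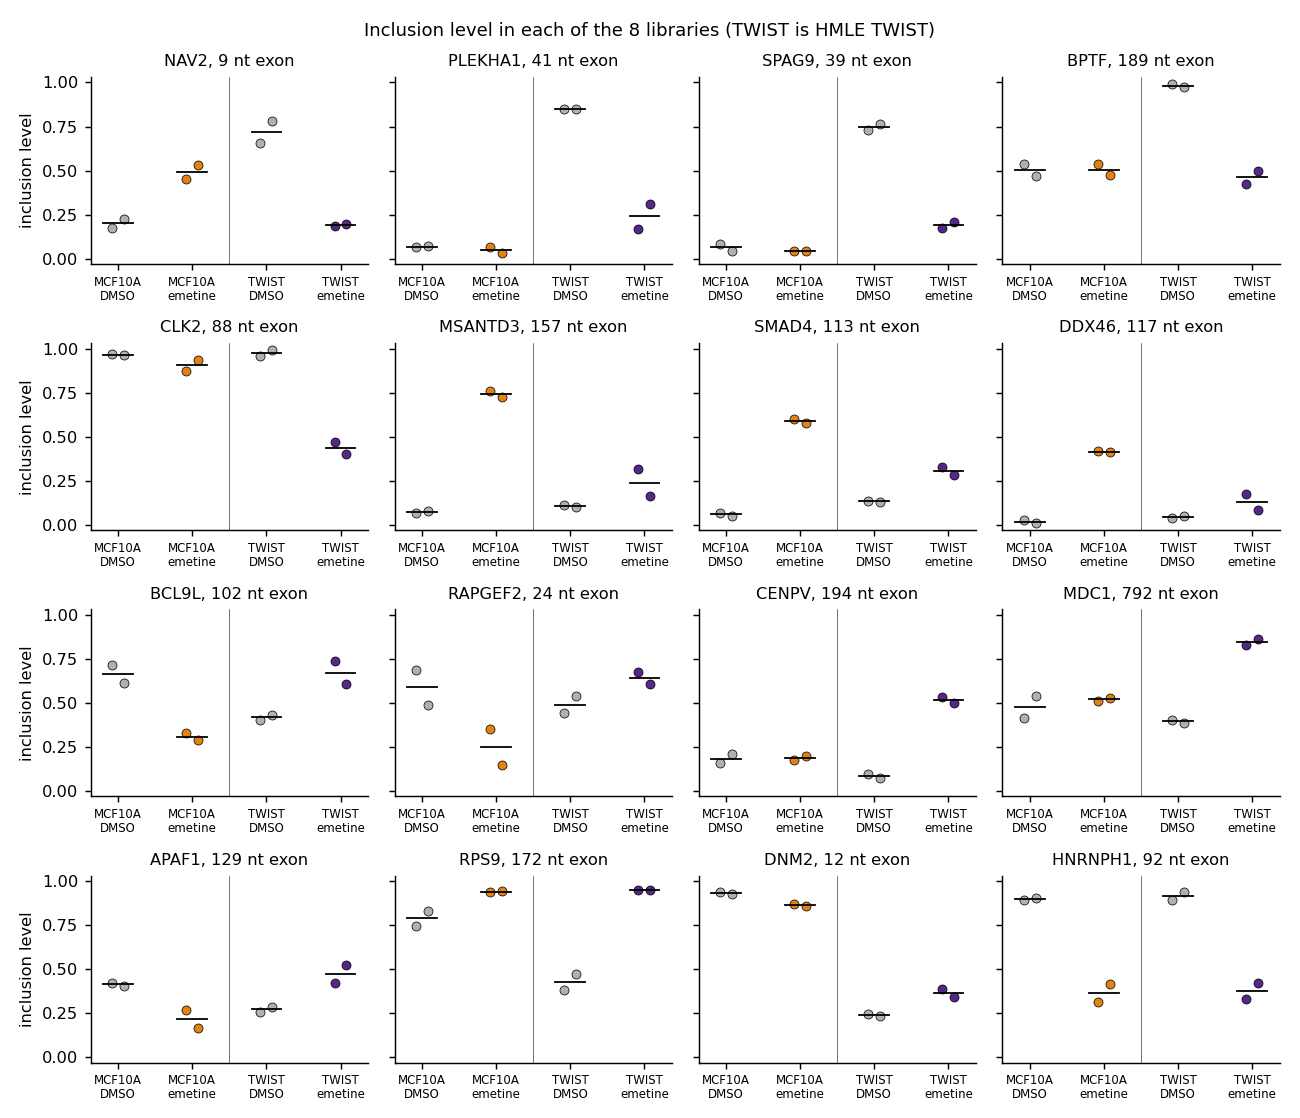
Inclusion level (y axis, 0 to 1) of 16 exons in each of the 8 libraries, by line and treatment: each point is a library and each horizontal line the mean of the 2 replicates. NAV2, BCL9L and APAF1 move in opposite directions in the lines, PLEKHA1, SPAG9, BPTF and CLK2 fall in HMLE TWIST, MSANTD3, SMAD4 and DDX46 go higher in MCF10A, and HNRNPH1 falls to between 0.313 and 0.424 in both.

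Differences of response were called most often in exons of intermediate use. Of 952 tested events whose mean level in the untreated lines was 0.3 to 0.7, 159 were called (16.7%), against 92 of 791 at 0.1 to 0.3 (11.6%) and 104 of 1598 at 0.7 to 0.9 (6.51%). Near the ends of the scale it was 58 of 4361 under 0.1 (1.33%) and 72 of 20052 at 0.9 or more (0.359%). The median absolute difference was also largest in the middle group, 0.0986 against 0.0120 and 0.0105 in the outer ones. The negative direction was the more frequent in every group, from 93 of 159 in the middle to 47 of 58 under 0.1. Without any 1 of the emetine libraries 33 to 46 events of the middle group were called. A given shift of the log odds moves the level most near its middle, and the control libraries enter both the level and the difference. The part of either in this order was not tested.

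The scale of the test decided many calls at the ends. When the difference of the changes was tested on the level scale, with the same dispersions, 1378 events were called (4.97%), 476 of them among the 485, and 73.58% were more negative in HMLE TWIST. Of the 902 events called by that test alone, 492 had a mean control level over 0.9 and 150 a level under 0.1. The mean level was lower under emetine in both lines in 492 of them and higher in both in 264, that is, the lines moved the same way by unequal amounts. MINK1, a kinase of JNK signalling, is an example, chosen after its values were seen as were the others of this paragraph. Its 111-nucleotide exon (ENSG00000141503.15; chr17:4795697-4795807) was at 0.998 and 1 in MCF10A under DMSO and 0.937 and 0.966 with emetine, against 0.956 and 0.958, then 0.296 and 0.430, in HMLE TWIST. The level changes differ by -0.547 (level-scale adjusted p-value 1.97e-14), while the fitted interaction in log odds was -0.227 (adjusted p-value 0.999). With the MCF10A controls at 0.998 and 1, that log odds value is poorly determined. A like movement in log odds is therefore not shown.

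The splicing kinase gene CLK3 and the cytoskeletal linker DST were also called on the level scale only, with larger fitted interactions in log odds. The 97-nucleotide exon of CLK3 was at or above 0.943 in the MCF10A libraries and the HMLE TWIST controls and at 0.450 and 0.569 in HMLE TWIST under emetine (difference -0.433; adjusted p-value 1.74e-14 on the level scale and 0.101 for the interaction, -2.29 in log odds). For the 18-nucleotide exon of DST the levels went from 1 in both controls to 0.834 and 0.817 in MCF10A, and from 0.921 and 0.927 to 0.269 and 0.393 in HMLE TWIST. Its difference was -0.418 in level but 1.6 in log odds, with opposite signs. No skipping read was counted in its MCF10A controls, so this log odds value is not a measured size. SLMAP (0.431) and SUN1 (0.405) were positive examples and MED15 (-0.407) another negative one.

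**Figure D3:**
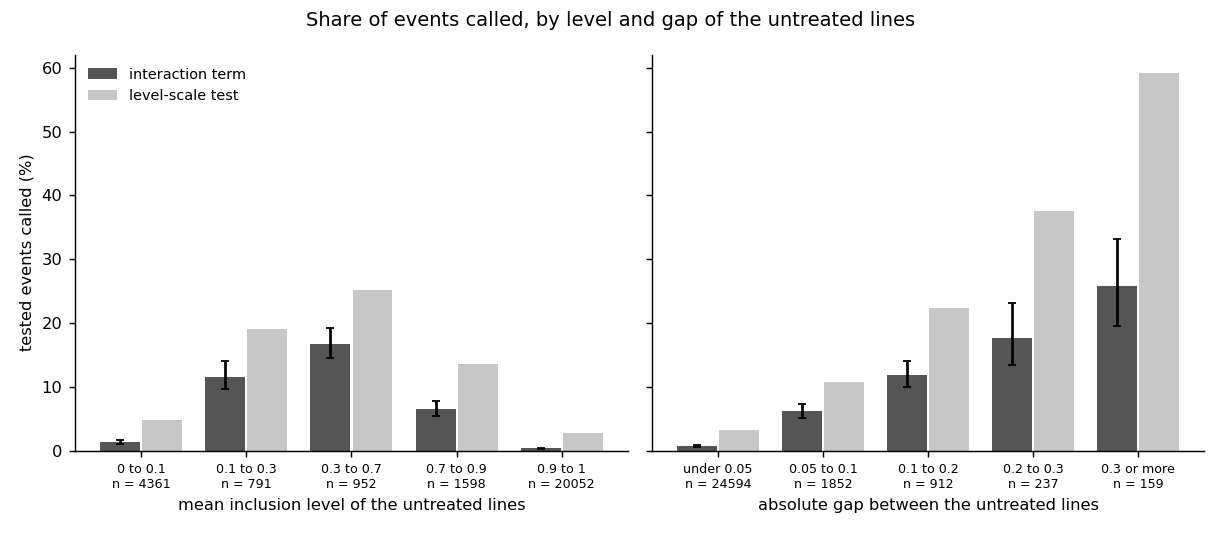
Share of tested events called (y axis, %) by the mean inclusion level of the untreated lines (left) and by the absolute gap between them (right), with the number of events tested under each group. Dark bars are the interaction term with Wilson 95% intervals and light bars the level-scale test. The share is highest at a level of 0.3 to 0.7 and rises with the gap.

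Exons that already differed between the untreated lines were called more often. The untreated lines differed in 950 tested events (3.42%) and the lines under emetine in 1977 (7.12%), by the same thresholds. Of the 485 called events 165 differed between the untreated lines and 294 between the lines under emetine. By size of the untreated gap the share called was 0.732% under 0.05, 6.16% at 0.05 to 0.1, 11.8% at 0.1 to 0.2, 17.7% at 0.2 to 0.3 and 25.8% (41 of 159) at 0.3 or more. The control libraries enter both the gap and the difference of the changes, so the 2 are not independent measures.

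The called events were sorted by the gap between the lines with and without emetine. In 220 called events the lines were under 0.1 apart in the controls and at least 0.1 apart under emetine, and in 174 of these HMLE TWIST ended lower. CLK2, MSANTD3, SMAD4, CENPV and MDC1 belong here. Among all tested events 1553 diverged in this way and 682 converged, so the larger number of diverging events is not particular to the called ones. In 110 events a gap of at least 0.1 shrank below 0.1, with 53 negative and 57 positive differences, as in BPTF, in the splicing-related zinc finger gene ZNF207 (0.331 to 0.369 in MCF10A, 0.701 to 0.440 in HMLE TWIST; difference -0.299, adjusted p-value 9.7e-11), and in 1 of the 2 called events of RPS9. In 39 events the lines changed places, with gaps of at least 0.1 of opposite sign, as in NAV2, BCL9L and APAF1. That is most of the 48 tested events that did so. By its definition this class needs a difference of the changes well above the 0.1 of a call, so a high share called follows in part from it. In 42 the lines stayed at least 0.1 apart in the same order, as in PLEKHA1, SPAG9 and MAP2K7, and in 74 both gaps were under 0.1. Of the 191 called events with an untreated gap of at least 0.1, the gap was smaller under emetine in 147 and larger in 44, against 980 and 328 of the 1308 such events among all tested.

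**Figure D4:**
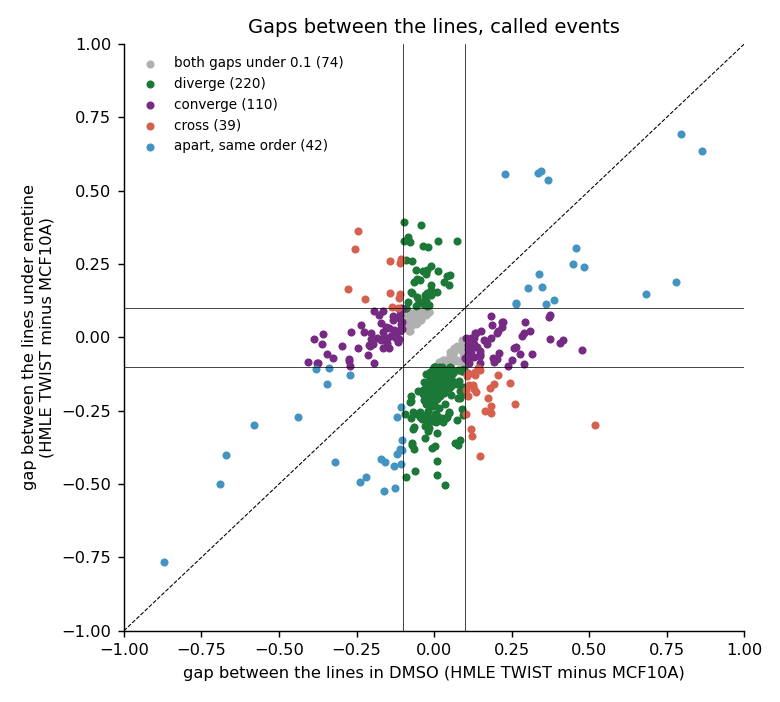
Gap between the lines (HMLE TWIST minus MCF10A, difference of mean inclusion level) in DMSO (x axis) and under emetine (y axis) for the 485 called events, coloured by pattern. Thin lines mark gaps of 0.1 and the dashed line equal gaps. The 220 events that diverge lie mostly below 0 on the y axis, where HMLE TWIST ends lower.

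By function, the list with the highest share of called events was that of genes known to switch exons in the epithelial-mesenchymal transition. Of 411 tested events in 62 genes of that list, 25 in 19 genes were called (6.08%, against 1.75% of all), 17 negative and 8 positive, with a median difference over the tested events of -0.00318 against -0.00246 over all. Without any 1 of the emetine libraries 8 to 10 of the list's events were called. The 25 events include 3 forms of 1 exon of CTNND1 and 2 of 1 exon of WNK1. The untreated lines differed in 76 of the 411 events (18.5%, against 3.42% of all) and in 18 of the 25. Among events with such an untreated difference, 23.7% (18 of 76) of this list and 17.4% (165 of 950) of all were called.

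In the list, several exons that were higher in untreated HMLE TWIST than in MCF10A fell there. Beside PLEKHA1 and SPAG9, the 96-nucleotide exon of ARHGEF11, a guanine nucleotide exchange factor (chr1:156908210-156908305, minus strand), fell from 0.933 and 0.942 to 0.720 and 0.713 with MCF10A at 0.0704 to 0.0889 throughout (difference -0.231, adjusted p-value 0.00553). In the calsyntenin gene CLSTN1 an exon of 57 nucleotides fell from a mean of 0.957 to 0.771 in HMLE TWIST and went from 0.159 to 0.0787 in MCF10A (difference -0.105, adjusted p-value 0.005, and 0.273 with the event's own dispersion where larger). A 15-nucleotide exon of ABI1, a subunit of the WAVE actin regulator, fell from 0.154 to 0.0269 in HMLE TWIST and was at most 0.00558 in any MCF10A library (difference -0.130, adjusted p-value 0.0228). APLP2, a relative of the amyloid precursor protein, also fell in HMLE TWIST, from 0.316 to 0.205, but began below MCF10A (0.635 in the controls and 0.629 under emetine; difference -0.104, adjusted p-value 2.07e-05). A 174-nucleotide exon of ABI1 that was above 0.9 in both untreated lines gave -0.115.

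Exons high in MCF10A gave positive differences. The 12-nucleotide exon of DNM2, the GTPase that pinches off endocytic vesicles (ENSG00000079805.16), went from 0.938 and 0.926 to 0.871 and 0.857 in MCF10A, whereas in HMLE TWIST it rose from 0.245 and 0.236 to 0.386 and 0.343. The groups of each line did not overlap, at 944 reads or more per library (difference 0.192, adjusted p-value 1.41e-06). ENAH encodes an actin polymerisation factor whose 63-nucleotide exon fell in MCF10A from 0.377 and 0.349 to 0.180 and 0.178, with 0.0151 to 0.0275 in HMLE TWIST (difference 0.187, adjusted p-value 0.0211). The 48-nucleotide exon of the Hippo coactivator YAP1 went from 0.606 to 0.532 in MCF10A and to 0.405 from 0.333 in HMLE TWIST (difference 0.146, adjusted p-value 0.00748), and a CD44 exon of 102 nucleotides from 0.974 to 0.909 and from 0.104 to 0.143 (difference 0.105, adjusted p-value 0.0145). In these 4 genes the untreated gap between the lines was smaller under emetine.

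Other genes of the list widened their gap or reversed it. CTNND1 encodes p120 catenin, which stabilises cadherins at the membrane. Its 182-nucleotide exon (chr11:57558964-57559145) was at 0.173 to 0.196 in the 4 MCF10A libraries and rose from 0.540 and 0.504 to 0.775 and 0.712 in HMLE TWIST (difference 0.226, adjusted p-value 1.89e-04). A 459-nucleotide exon of the ion transport kinase WNK1 rose in both lines, from 0.184 and 0.235 to 0.803 and 0.865 in MCF10A. In HMLE TWIST it went from 0.374 and 0.376 to 0.594 and 0.572 (difference -0.417, adjusted p-value 8e-05). The second called event of this exon, with different neighbours, gave -0.1463 (adjusted p-value 4.79e-05), and there both gaps between the lines were under 0.1. PPFIBP1 (-0.283), PTK2 (-0.235), AKAP13 (0.328) and CSNK1G3 (-0.101) also had a call.

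Among the factors that act on RNA, 5 of 110 events of SR proteins and their kinases were called (4.55%), in CLK2, SRRM2 and SRSF11. SRRM2, a large protein of the spliceosome, had a 95-nucleotide decay-target exon (chr16:2818506-2818600) at 0.207 to 0.223 in the 4 MCF10A libraries that rose from 0.0477 and 0.0340 to 0.310 and 0.226 in HMLE TWIST (difference 0.22, adjusted p-value 9.7e-11, at least 1192 reads). The other RNA-binding regulators had 7 of 201 (3.48%), the spliceosome list 7 of 206 (3.40%) and the RNA helicases 8 of 161 (4.97%), and the hnRNP proteins 2 of 123 (1.63%). The 8 helicase events lay in 5 genes, and several of them were events of EIF4A2 that in part share reads. ACIN1, a splicing-associated factor that is cleaved in apoptosis, led the regulators: its 120-nucleotide exon was at 0.345 to 0.424 in MCF10A, whereas in HMLE TWIST it fell from 0.463 and 0.564 to 0.212 and 0.163 (difference -0.306, adjusted p-value 1.7e-07). TIA1, a stress granule protein, had a 66-nucleotide decay-target exon that rose in MCF10A from 0.105 and 0.0692 to 0.283 and 0.242 and was 0.0635 to 0.123 in HMLE TWIST (difference -0.193, adjusted p-value 0.0132, and 0.128 with the event's own dispersion where larger; held in 2 of the 8 fits without a library). HNRNPC (difference -0.102, adjusted p-value 3.44e-04) and HNRNPAB (difference -0.107, adjusted p-value 0.00124) were both negative, the first with an adjusted p-value of 0.26 with the event's own dispersion where larger.

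Translation and mRNA decay were covered by 3 lists. Of 68 events of decay factors and the exon junction complex 2 were called (2.94%). DHX34, a helicase of the pathway, had a 75-nucleotide decay-target exon (chr19:47880172-47880246) that rose in MCF10A from 0.238 and 0.248 to 0.404 and 0.376, with 0.30 and 0.331 under DMSO and 0.265 and 0.198 with emetine in HMLE TWIST (difference -0.231, adjusted p-value 0.0355, and 0.0523 with the event's own dispersion where larger). Translation factors had 11 of 353 (3.12%), 6 negative and 5 positive. PABPC4, a poly(A)-binding protein, had an 87-nucleotide exon at 0.846 and 0.832 against 0.889 and 0.898 in MCF10A that fell from 0.863 and 0.832 to 0.674 and 0.575 in HMLE TWIST (difference -0.278, adjusted p-value 1.09e-06). A second called event of this exon had a smaller difference of -0.1434 (adjusted p-value 0.0137). Of 221 events of ribosomal protein genes 2 were called (0.905%), both on the 172-nucleotide exon of RPS9 (chr19:54710421-54710592). In 1 of them the level rose from 0.746 and 0.831 to 0.938 and 0.941 in MCF10A. In HMLE TWIST it rose from 0.384 and 0.474 to 0.951 in both libraries (difference 0.371, adjusted p-value 8.85e-08). The other, with different neighbours, had a smaller difference of 0.1485 (adjusted p-value 7.32e-16), and there the lines diverged.

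Lists for cell structure and signalling were close to the share of all events. It was 12 of 557 for the actin cytoskeleton (2.15%), 12 of 637 for microtubules and motors (1.88%), 8 of 479 for adhesion and matrix (1.67%), 20 of 1290 for vesicle traffic (1.55%) and 16 of 753 for signalling kinases (2.12%). LIMK2, which phosphorylates cofilin, is the leading gene of the actin list outside WASH6P, a member of a near-identical family whose reads are uncertain. Its 100-nucleotide exon was at 0.861, 0.680, 0.841 and 0.890 in MCF10A and fell from 0.893 and 0.864 to 0.665 in both HMLE TWIST emetine libraries (difference -0.308, adjusted p-value 0.0158, and 0.128 with the event's own dispersion where larger; held in 1 of the 8 fits without a library). Of the signalling kinase events 13 of 16 were negative, led by PI4KB and WNK1, against 67.01% of all called events. They lay in 12 genes, with several events each of PI4KB and WNK1.

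Chromatin enzymes had 20 of 776 events called (2.58%), 14 negative and 6 positive, in 14 genes. Beside BPTF, a 153-nucleotide exon of ASXL1, a partner of a histone H2A deubiquitinase (chr20:31017704-31017856), was at 0.648 to 0.706 in the 4 MCF10A libraries and fell from 0.755 and 0.805 to 0.452 and 0.388 in HMLE TWIST (difference -0.365, adjusted p-value 2.96e-05). Cell cycle and DNA repair genes had 17 of 1106 (1.54%), 8 negative and 9 positive, with CENPV and MDC1 in front. Of 210 events of cell death genes, those of APAF1 and BIRC5 were called (0.952%). BIRC5 encodes survivin, an inhibitor of apoptosis, and its 165-nucleotide exon rose in both lines, from 0.0811 and 0.221 to 0.772 in both MCF10A libraries and from 0.122 in both to 0.446 and 0.415 in HMLE TWIST (difference -0.312, adjusted p-value 0.0156, held in 1 of the 8 fits without a library).

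The remaining lists ran from 1.27% to 2.84%. Zinc finger genes had 11 of 387 (2.84%), tRNA enzymes 7 of 339 (2.06%), the stress response and polyamine list 3 of 148 (2.03%), long noncoding RNA and snoRNA host genes 6 of 391 (1.53%), transcription factors 10 of 667 (1.5%), mitochondria and energy metabolism 16 of 1091 (1.47%), solute carriers 5 of 367 (1.36%) and the ubiquitin system 17 of 1342 (1.27%). Of the 16 mitochondrial events 14 were negative, against 67.01% of all called events. They lay in 11 genes, with several events of MFF, ECHDC2 and MRPL55, so they are not separate observations. In SNHG8, a snoRNA host gene, an exon of 31 nucleotides rose in both lines, from a mean of 0.577 to 0.780 in MCF10A; in HMLE TWIST it went from 0.333 to 0.745 (difference 0.208, adjusted p-value 4.59e-04).

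**Figure D5:**
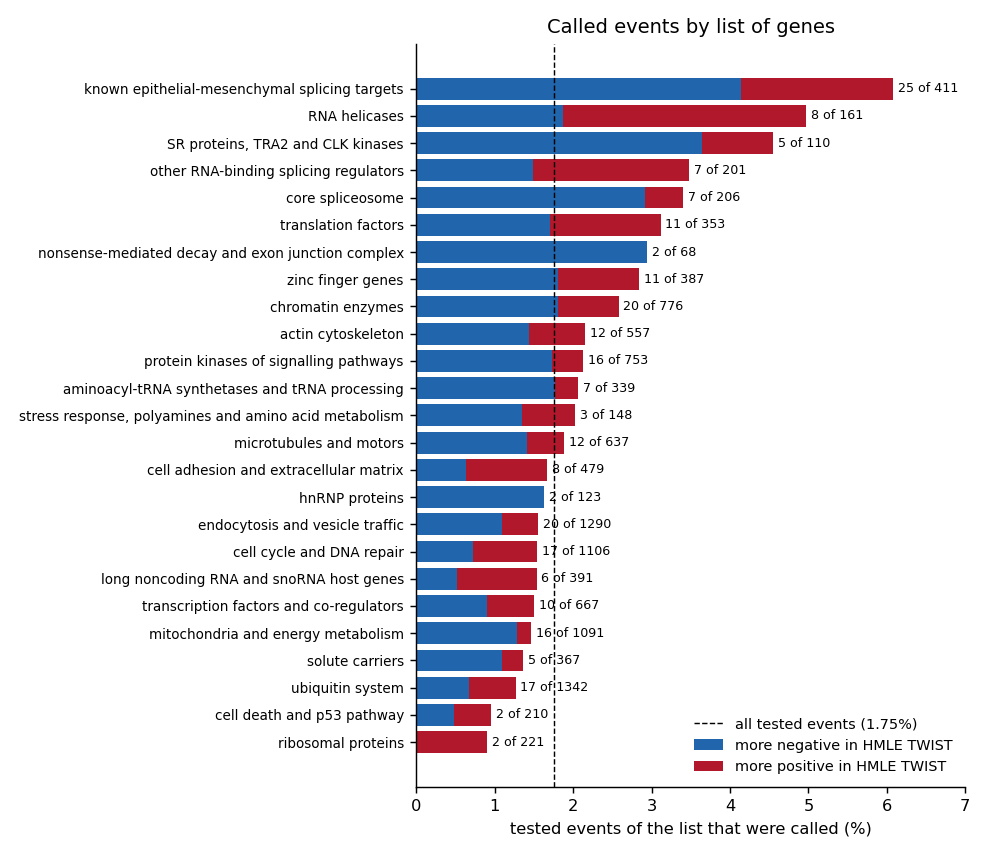
Share of the tested events of each gene list reported here that were called (x axis, %), split into negative (blue) and positive (red) differences, with counts at the end of each bar; the dashed line is the 1.75% of all tested events. The list of known epithelial-mesenchymal splicing targets has the longest bar, 25 of 411, and many other lists lie near the line.

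The called exons also differed in kind. Of 326 tested events on exons of 27 nucleotides or fewer, 14 were called (4.29%, Wilson 2.58 to 7.08), 10 with a positive difference. The interval counts events of an exon as separate. With the event's own dispersion where larger 7 were called. The share was 1.53% (209 of 13679) from 100 to under 200 nucleotides, where 161 were negative. Longer exons also had higher shares, 2.11% (50 of 2367) from 200 to under 400 nucleotides and 2.95% (20 of 678) at 400 or more. Exons whose length is a multiple of 3 were called in 222 of 10527 events (2.11%) and others in 263 of 17227 (1.53%), but on the level scale the shares were 4.97% and 4.96%. The share fell with the length of the shorter flanking intron, from 2.21% under 500 bases through 1.81% and 1.45% to 0.582% (11 of 1891) at 10000 or more. By GENCODE 29 annotation it was 4.36% (71 of 1628) for exons outside the coding part, 2.90% for partly coding exons, 2.40% (69 of 2871) for decay-target exons, 2.39% for exons of noncoding transcripts and 1.40% (224 of 16002) for coding exons. It was lowest, 0.849% (33 of 3888), for events whose exon and intron lengths had no match there. By depth the share was 2.16% under 100 mean reads and 0.929% over 3000. These shares were not adjusted for each other or for the control level.

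Most shared changes were not called different. Of 1450 events changed in both lines in the same direction, 67 had an interaction call and 297 a level-scale call. In 301 the 95% interval of the difference lay within 0.1 of 0. These intervals use the moderated dispersion, which can be smaller than the event's own, so they do not by themselves show equal responses. The 4 with the largest change in both lines were in SAT1, HNRNPH1, SRSF3 and UPP1. SAT1, the enzyme that acetylates spermidine and spermine, had a 110-nucleotide exon that rose from 0.0335 and 0.0282 to 0.763 and 0.743 in MCF10A; in HMLE TWIST it went from 0.0258 and 0.0108 to 0.729 and 0.645 (difference -0.0532, -0.0933 to -0.0132). For HNRNPH1, a protein that binds G-runs, the difference was -0.00241 (-0.0673 to 0.0624), for SRSF3 -0.0404 (-0.0802 to -0.000623) and for the nucleoside enzyme UPP1 -0.00405 (-0.0455 to 0.0374). The HNRNPH1 replicates lay apart under emetine, at 0.313 and 0.416 in MCF10A and 0.329 and 0.424 in HMLE TWIST. Its own dispersion was 37.4, so its interval is narrow for this spread. At the read limit, the median absolute difference was 0.0349 in the 159 events with 50 reads in the shallowest library and 0.0347 in the 179 with 49.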

How the data were processed

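Junction counts were taken from the 2 skipped-exon tables in rMATS format that the authors deposited, 1 per line; per the file headers they give inclusion and skipping reads and the effective length of each form. Reads were aligned with STAR 2.5.3a to GRCh37, per the submitters' processing notes; the rMATS version and the annotation are not given in the sources used here. Headers number the 2 sample groups without naming them, and group 1 was read as DMSO and group 2 as emetine, following the table names. The deposited difference score, the authors' difference of mean levels, was recomputed to within 0.00142. The inclusion level is the inclusion count over its length, divided by the sum of that and the skipping count over its length.

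Tables were joined on chromosome, strand and 6 exon coordinates. Events with 20 or more reads in each library and 10 or more of the rarer form (31825) were fitted with a quasi-binomial logistic model (R 4.3.3). Dispersions were moderated with limma 3.58.1 (squeezeVar, trend on depth; 30.2 total degrees of freedom) and floored at 1, and likelihood-ratio F tests were adjusted by Benjamini-Hochberg over all fitted events. Adjusted p-values here are two-sided and come from this model unless limma or the level scale is named. Intervals of differences are 95% and use the delta method. A call needs an adjusted p-value under 0.05 and an absolute difference of 0.1. The fits within a line and between lines use the same dispersions, and all comparisons share control libraries. The model was also run on simulated data with 1 dispersion for all events. There it made no call on an unshifted event but missed most of the shifted ones. Dispersions of the real events varied more, so the lack of false calls there does not carry over to these data.

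Named events follow a rule: 1 per gene, the 10 most negative and 10 most positive, the 2 largest per gene list, the 3 largest per pattern and 4 shared changes. All called events of the epithelial-mesenchymal list, the events with opposite changes, further events of BCL9L, NAV2, LETMD1, EIF4A2, DCAF8, PI4KB and the level-scale examples were added after their values were seen. Genes were put in lists by symbol, so a list can hold a gene of another role. The events, lists and tests were chosen with earlier results of these data known, and nothing that those results show is given as independent support. Coordinates are GRCh37 with starts counted from 1. Same-place replicates of the groups deviated together with correlations of 0.0707 and 0.0597 over the tested events. Most of these events vary little between replicates, so this check cannot exclude a pairing of the samples. Some items are not reported here.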

Additional observations from a re-analysis of the deposited data

Results flagged for a closer look

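The response to emetine differed between the lines in 485 events by the interaction term, and the events given in the report are such differences. The 18 events below were called within each line as well, with opposite directions. The difference of the changes (HMLE TWIST minus MCF10A) was -0.8186 for the NAV2 exon that starts at 20104138 and -0.2839 for that at 20078076. It was 0.6083 for the BCL9L exon at 118780623 and 0.5548 for that at 118789535. Further positive values were 0.4004 for APAF1, 0.3293 for MAP2K7, 0.3283 for AKAP13 and 0.2524 for GPD1L. Negative values were -0.3827 for CNEP1R1, -0.3528 for CDK5RAP2, -0.3349 for OSBPL6, -0.3223 for C20orf24, -0.3065 for OXR1, -0.2769 for LETMD1, -0.2708 for USP21, -0.2596 for MPRIP, -0.242 for TBC1D13 and -0.2399 for MARK2. In OXR1 the MCF10A emetine libraries (0.563 and 0.389) overlapped the controls (0.404 and 0.311). The groups held 2 libraries each, too few for a search for outlying libraries.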

How the results depend on the processing

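The count of 485 was within 1.5 times under 1 shared dispersion (467), without the length correction (482), at 20 reads (529), with no minimum on the rarer form (557), in a fit over the members only (479) and with 1 event per exon (427). It was 285 with the event's own dispersion where larger, 1378 on the level scale and 222 at a difference of at least 0.2. Own dispersions alone gave 0 (1780 at an unadjusted p-value under 0.05), and limma on log odds called 0 (3518) or, with a trend, 0 (3593). Without 1 library it ran from 90 to 377, the total degrees of freedom falling to 9.2 to 9.7 without an emetine library and to no less than 24.3 without a control. The share of negative events ran from 64.79% to 70.8% without 1 library and was 73.58% on the level scale.

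With the replicate block, taking the first listed value as replicate 1, 0 events were called. The check of the pairing cannot decide between the fits with and without this block.

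The epithelial-mesenchymal list had 54 called events on the level scale and 8 to 20 without 1 library, the lowest without the first-listed HMLE TWIST emetine library. At a control level of 0.3 to 0.7, 159 called events became 95 with own dispersions where larger, 239 on the level scale and 33 to 127 without 1 library. For exons of 27 nucleotides or fewer the 14 became 7, 26 and 3 to 10. With own dispersions alone, changes within MCF10A numbered 862, within HMLE TWIST 1646, between untreated lines 33 and between lines under emetine 119; without 1 library these were 1919 to 2310, 2716 to 3046, 722 to 789 and 1511 to 1959. At a gap of 0.15, 12 called events changed places, 25 kept their order and 198 had small gaps. The sign of shared changes near 0 varied: HNRNPH1 was 0.004967 and UPP1 0.01871 without the length correction, and without 1 library HNRNPH1 ran from -0.05382 to 0.04901 (also 0.003597, 0.01828 and 0.04527), UPP1 from -0.03712 to 0.02902 (also 0.005677 and 0.007293) and SRSF3 from -0.09602 to 0.01523.

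Depth limits small differences: the median absolute difference was 0.0349 in events with 50 reads in the shallowest library and 0.0131 over all tested, and on simulated data the model missed most true differences. An event without a call is not shown to respond alike.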

Other observations

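In 67 genes 2 or more exons were called, and in 9 genes the called events went in both directions: AURKA, DCAF8, EIF4A2, GOLGA4, LRR1, MRPL33, PI4KB, WHSC1 and ZC3H14. The events described here were chosen after their values were seen, except the 111-nucleotide exon of EIF4A2. EIF4A2 encodes a helicase of translation initiation. Its exon of 111 nucleotides (chr3:186506099-186506209), of noncoding transcripts only, rose from 0.485 and 0.533 to 0.944 and 0.940 in MCF10A; in HMLE TWIST it went from 0.133 and 0.0746 to 0.870 and 0.846. The lines thus began apart and ended within 0.1 of each other (difference 0.322, adjusted p-value 6.18e-05, and 0.136 with the event's own dispersion where larger). A form of the same exon that is 107 nucleotides long, annotated as a decay target, shares most of its reads and had a difference of 0.288. A coding exon of 140 nucleotides upstream (chr3:186502751-186502890) moved the other way: it was 0.640 to 0.697 in the 4 MCF10A libraries and fell from 0.828 in both HMLE TWIST controls to 0.556 and 0.570 (difference -0.248, adjusted p-value 7.01e-10, at least 2417 reads).

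DCAF8, a substrate receptor of a cullin ubiquitin ligase, had 4 positive events on exons outside the coding part that share a start at 160231075 on chromosome 1. Of these the 66-nucleotide form fell from a mean of 0.645 to 0.448 in MCF10A and went from 0.609 to 0.674 in HMLE TWIST (difference 0.263, adjusted p-value 0.00464, and 0.0706 with the event's own dispersion where larger). Another of these events, of 74 nucleotides, did not fall in MCF10A. Its mean went from 0.6815 to 0.7257 there and from 0.5765 to 0.8251 in HMLE TWIST (difference 0.2044, adjusted p-value 4.12e-04, and 7.19e-04 with the event's own dispersion where larger). A 58-nucleotide coding exon of the gene, for which GENCODE 29 lists skipping only in decay targets, fell in HMLE TWIST from 0.966 to 0.759 and went from 0.942 to 0.858 in MCF10A (difference -0.123, adjusted p-value 0.0389, and 0.493 with the event's own dispersion where larger; held in 1 of the 8 fits without a library). In PI4KB the 173-nucleotide exon outside the coding part (chr1:151297221-151297393, minus strand) was called in both directions with different neighbours. In 1 form it rose from 0.22 to 0.42 in MCF10A; in HMLE TWIST it went from 0.174 to 0.616 (difference 0.242, adjusted p-value 1.67e-05), and in the other it rose from 0.313 to 0.462 in MCF10A with 0.326 and 0.331 in HMLE TWIST (difference -0.145, adjusted p-value 0.0280, called in none of the 8 fits without a library).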
